A study of Mus musculus with 12 samples.

Results

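The genes described here encode the machinery that makes cholesterol and fatty acids, with its regulators and the sterol efflux pumps. They were listed by symbol, and a gene was included when the platform annotation gave a probe set to that symbol alone. Of 36 listed genes, 34 had such a probe set; they carried 80 probe sets, out of 18193 genes and 34945 probe sets with a single symbol on the array. Acat2 and Nr1h2 were not analysed here. RNA was taken from CD4 T cells of the spleen, from female mice of the lupus-prone MRL/Faslpr strain, whose lpr allele disables the death receptor Fas, so every population carried that mutation. All cells were sorted as TCRb+ CD4+ B220-. Mice aged 16 to 24 weeks gave 3 CD44+ populations, named CD62Lhi PSGL1hi, CD62Llo PSGL1hi and CD62Llo PSGL1lo. Mice aged 6 to 8 weeks gave naive CD62Lhi CD44lo cells. CD62L is a lymph node homing receptor and PSGL1 a selectin ligand, so the sort sets antigen-experienced cells with both molecules, with PSGL1 alone or with neither against each other and against naive cells. Age and gate cannot be told apart in any comparison with naive cells, and no Fas-intact cells were compared.

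Cells make cholesterol from acetyl-CoA. The mevalonate enzymes build isoprenoid units, which are joined into squalene, closed into a ring and trimmed to cholesterol. SREBP2, the product of Srebf2, drives these genes when sterols run low, and SREBP1, from Srebf1, leans toward fatty acid genes. Both leave the endoplasmic reticulum with the escort SCAP and are held there by INSIG proteins when sterols are plentiful. Liver X receptors sense oxysterols and switch on efflux pumps. T cells are known to raise sterol and fatty acid synthesis when they are activated and divide, and to draw on it for membranes and for prenylated proteins.

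Each population had 3 arrays. A value is a signal divided by the median of that probe set on the 12 arrays, so it compares arrays for 1 gene and gives no level of one gene against another. Differences are on the log2 scale ± SE of the limma fit, with n = 3 arrays per population. A gene is called when its Benjamini-Hochberg adjusted p over all 18193 genes is under 0.05. The titles call the arrays of a population technical replicates and the design text speaks of independent sorts, so a p-value here reflects the spread among these arrays and may not reach beyond them. Selplg, which encodes PSGL1, had ratios of 0.118, 0.127 and 0.153 in the CD62Llo PSGL1lo arrays and 0.906 to 1.10 in CD62Llo PSGL1hi, and Cd44 had 0.0752 to 0.0842 in the naive arrays, as the gates were drawn. The number of arrays limits the precision; the median SE was 0.118 over all genes and 0.126 over the members.

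Other RNAs moved with the populations too, and their part in the results was not tested. Of 23 cell cycle genes measured, 16 were higher in CD62Lhi PSGL1hi than in naive cells and none lower, with a median log2 difference of 1.06. From CD62Lhi PSGL1hi to CD62Llo PSGL1hi 14 were lower, against 1.42% of all genes. From CD62Llo PSGL1hi to CD62Llo PSGL1lo 3 were lower, against 6.16% of all genes. The neutrophil genes S100a8 and S100a9 had ratios of 11.96 to 14.7 in the naive arrays and 0.556 to 1.49 in the other 9. Over the whole list of 13 macrophage, monocyte and neutrophil markers, the median log2 ratio of an array lay between 0.14 and 0.20 in naive cells, -0.23 and 0.10 in CD62Lhi PSGL1hi, -0.10 and 0.23 in CD62Llo PSGL1hi, and -0.28 and 0.00 in CD62Llo PSGL1lo. Among 5 plasma cell markers, 3 or 4 were higher in each CD44+ population than in naive cells, and of 8 B cell markers 1 was higher and 3 were lower in CD62Llo PSGL1lo than in naive cells, where 11.1% of all genes were higher and 12.1% lower (10.6% and 10.8% higher in CD62Lhi PSGL1hi and CD62Llo PSGL1hi). All 9 T cell markers measured, Cd3e and Cd4 among them, had positive differences between CD62Llo PSGL1lo and naive cells. Ratios to a gene's own median cannot show whether any of these markers was at or near 0. In bulk RNA, fewer cells of a type and less RNA per cell cannot be told apart.

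Promoter sequences were printed for 5 members: Hmgcs1, Idi1, Insig1 and Acss2, which had the highest mean in naive and the lowest in CD62Llo PSGL1lo cells, and Elovl6, which had the highest in CD62Lhi PSGL1hi. Each is the 250 bases before the annotated transcription start in RefSeq GRCm38.p6, read 5′ to 3′ along the gene, all on the plus strand: Hmgcs1 at chr13:119690101-119690350, Idi1 at chr13:8885356-8885605, Insig1 at chr5:28071162-28071411, Acss2 at chr2:155517793-155518042 and Elovl6 at chr3:129532136-129532385. Capitals mark matches to CCAAT, the box bound by NF-Y, which on the opposite strand reads ATTGG, and to the sterol regulatory element TCACNCCAC, to which SREBP binds.
Hmgcs1: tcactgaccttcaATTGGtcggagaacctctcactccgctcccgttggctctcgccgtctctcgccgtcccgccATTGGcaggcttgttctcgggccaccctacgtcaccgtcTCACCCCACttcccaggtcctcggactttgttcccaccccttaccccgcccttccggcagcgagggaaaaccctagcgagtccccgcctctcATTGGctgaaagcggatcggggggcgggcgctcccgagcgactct
Idi1: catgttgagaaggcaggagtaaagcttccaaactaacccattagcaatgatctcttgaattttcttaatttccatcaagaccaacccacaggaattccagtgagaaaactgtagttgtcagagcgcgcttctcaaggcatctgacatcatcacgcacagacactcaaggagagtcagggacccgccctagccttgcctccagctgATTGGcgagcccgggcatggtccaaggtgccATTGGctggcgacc
Insig1: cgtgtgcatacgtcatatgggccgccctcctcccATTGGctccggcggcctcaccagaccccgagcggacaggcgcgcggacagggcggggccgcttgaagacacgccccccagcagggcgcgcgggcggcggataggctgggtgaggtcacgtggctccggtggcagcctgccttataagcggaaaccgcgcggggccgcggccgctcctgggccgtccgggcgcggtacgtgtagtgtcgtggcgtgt
Acss2: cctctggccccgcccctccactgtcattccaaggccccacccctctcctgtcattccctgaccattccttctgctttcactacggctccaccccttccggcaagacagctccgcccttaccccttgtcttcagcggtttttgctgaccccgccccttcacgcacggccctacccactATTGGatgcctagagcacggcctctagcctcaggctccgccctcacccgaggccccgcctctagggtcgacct
Elovl6: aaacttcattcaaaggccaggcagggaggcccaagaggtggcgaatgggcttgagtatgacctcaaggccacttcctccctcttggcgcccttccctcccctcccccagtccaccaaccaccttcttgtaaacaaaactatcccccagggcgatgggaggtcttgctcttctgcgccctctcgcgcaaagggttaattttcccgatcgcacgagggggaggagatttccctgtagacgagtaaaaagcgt

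The Hmgcs1 promoter held TCACCCCAC 137 to 129 bases before the start and 3 CCAAT boxes, all on the opposite strand. Idi1 had 2 CCAAT boxes, Insig1 and Acss2 1 each, and Elovl6 neither motif. A promoter entry was found for 26 of the 34 members. Those without one were Fdps, Fdft1, Sqle, Stard4, Scd1, Scd2, Fads1 and Abcg1. Both strands were searched, the motifs did not overlap in the printed sequences, and a gene counts when any of its windows holds the motif. CCAAT was present in 19 of 26 members (73.1%) against 37.5% of 27025 genes, and in 13 of the 14 members with an entry that differed among the populations (92.9%; Elovl6 was the exception). TCACNCCAC was present in 1 of 26 members (3.85%) against 1.22% of genes. These shares describe letters in a 250-base window and say nothing of binding.

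Across the 4 populations, 20 of the 34 members were called by the limma F test, against a background of 28.2% of all genes. All 6 mevalonate enzymes were among them, as were 3 of 5 regulators, 5 of 10 squalene and sterol enzymes, the sterol carrier Stard4, 2 of 5 fatty acid synthesis genes and 3 of 4 desaturases, and none of the 3 liver X receptor and efflux genes. The means of many members were lowest in CD62Llo PSGL1lo. CD62Llo PSGL1lo had the lowest mean for 23 of 34 members (67.6%, against 28.8% of all genes). For 11 members (32.4%, against 8.78% of all genes) the means ran in full order from naive through CD62Lhi PSGL1hi and CD62Llo PSGL1hi to CD62Llo PSGL1lo: Srebf1, Srebf2, Insig1, Hmgcs1, Mvd, Idi1, Sqle, Cyp51, Msmo1, Acss2 and Abca1, the last of which was not called. The order is one of means only: among the members in that order with array values given here, Hmgcs1 alone stepped down without overlap between neighbours. Naive cells were highest for 16 members (47.1%), close to the 43% of all genes. Array 2 of CD62Llo PSGL1lo was low for many members, with a median log2 ratio of -0.31 over the 34, against -0.09 on both other arrays of that population. The low level was not confined to the members. The median ratio of the whole array was 0.967, the lowest of any array, against 1.008 and 0.999 on those arrays. T cell markers had a median log2 ratio of -0.11 on array 2, against 0.18 and 0.23. Fatty acid oxidation genes had -0.14, against 0.15 and 0.11. B cell markers did not follow (-0.08, against -0.09 and -0.14). Without array 2, CD62Llo PSGL1lo was lowest for 18 members, and 11 still ran in full order. The share of all genes was not computed without it. Of the 20 called, 18 kept the call without any 1 array. Mvk lost it without naive replicate 1 (adjusted p = 0.0558), and Fads1 without any of 10 arrays (adjusted p up to 0.138), that is, each array except replicate 1 of CD62Llo PSGL1lo and replicate 3 of CD62Lhi PSGL1hi.

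**Figure D1:**
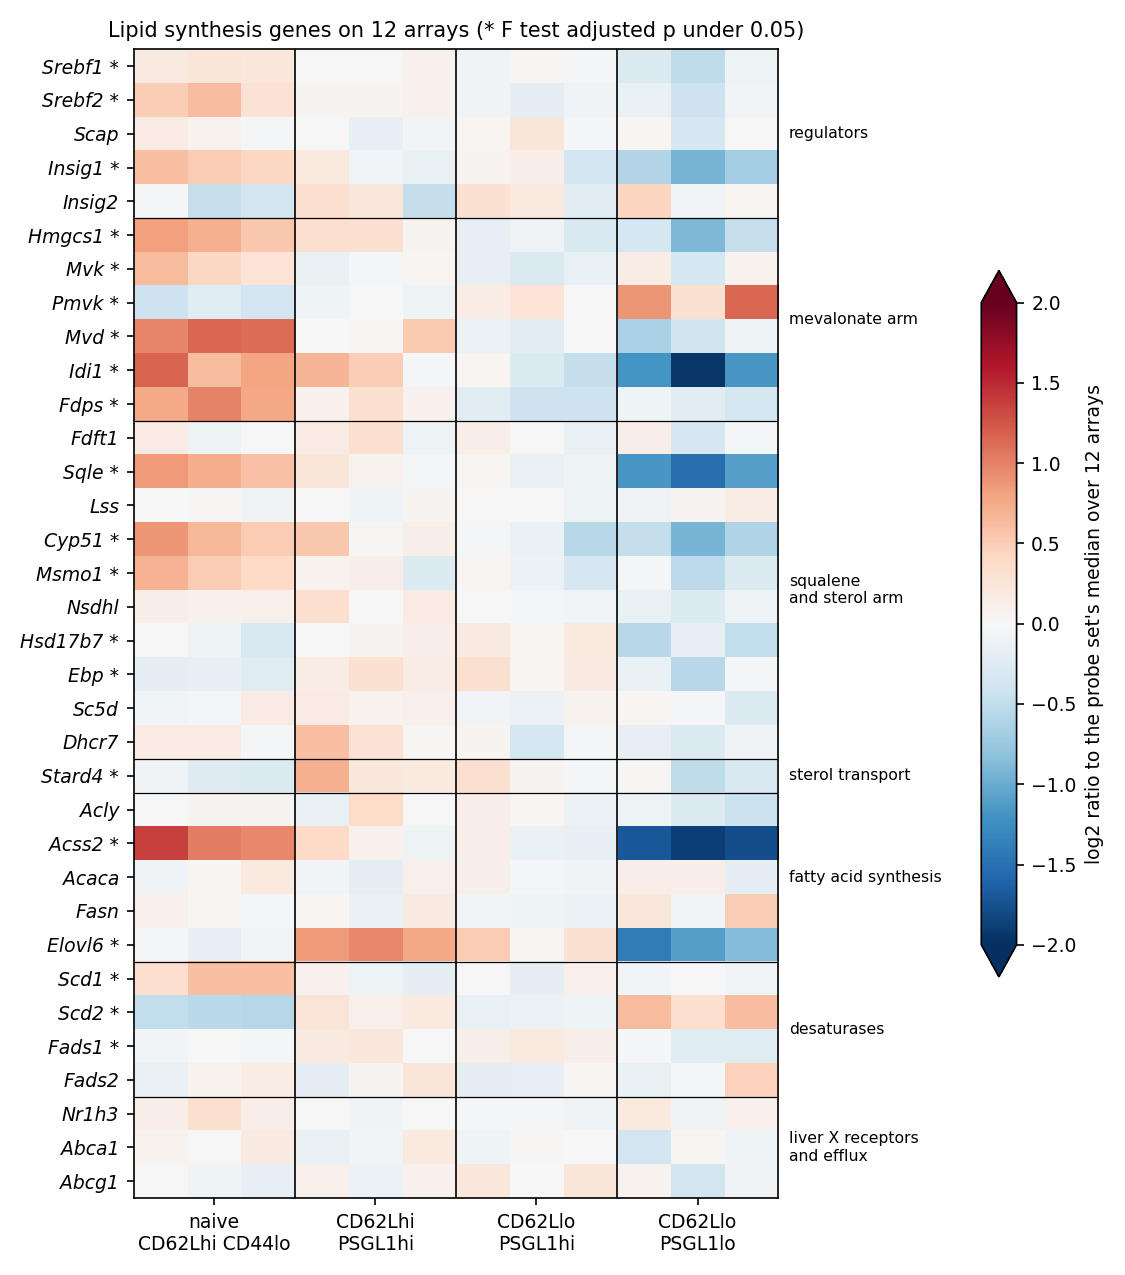
Log2 ratio of each of the 34 members (rows, grouped by role) on each of the 12 arrays (columns, 3 per population), from blue (low) to red (high); an asterisk marks the 20 members called by the F test. The mevalonate rows are red in naive cells apart from Pmvk, and CD62Llo PSGL1lo columns are the bluest for Acss2, Idi1, Sqle and Elovl6.

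Among the regulators, the transcription factor genes themselves were highest in naive cells. Srebf2, the sterol master regulator, had ratios of 1.41, 1.53 and 1.22 in naive, 1.04, 1.04 and 1.06 in CD62Lhi PSGL1hi, 0.957, 0.884 and 0.956 in CD62Llo PSGL1hi, and 0.904, 0.750 and 0.960 in CD62Llo PSGL1lo arrays. The naive arrays were above all others, while both CD62Llo populations overlapped. Srebf2 was lower than in naive cells by -0.40 ± 0.11, -0.57 ± 0.11 and -0.67 ± 0.11 in the 3 CD44+ populations in that order (limma adjusted p = 0.0161, 0.00126 and 0.000222); the first call was lost without naive replicate 1 or 2 (adjusted p 0.0929 and 0.0551). Srebf1 was lower in CD62Llo PSGL1lo than in naive cells by -0.51 ± 0.10 (adjusted p = 0.00152), with mean ratios of 1.16 ± 0.0245 (SD, n = 3) in naive and 0.820 ± 0.115 in CD62Llo PSGL1lo. Scap, the escort, was not called in any comparison, and its difference between CD62Llo PSGL1lo and naive cells was -0.15, with a 95% interval from -0.40 to 0.09.

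Insig1, the sterol-induced retention factor, is itself an SREBP target. Its ratios were 1.52, 1.42 and 1.33 in naive, 1.15, 0.962 and 0.903 in CD62Lhi PSGL1hi, 1.04, 1.09 and 0.763 in CD62Llo PSGL1hi, and 0.663, 0.524 and 0.625 in CD62Llo PSGL1lo arrays. The PSGL1hi populations overlapped each other, and the naive and PSGL1lo arrays stood clear above and below them. CD62Llo PSGL1lo was 2.36-fold lower than naive cells (-1.24 ± 0.14, adjusted p = 4.49e-06) and 1.59-fold lower than CD62Llo PSGL1hi (-0.66 ± 0.14, adjusted p = 0.00445), though the latter missed the threshold after quantile normalization (adjusted p = 0.0976). Its paralogue Insig2 went the other way in value, 0.43 ± 0.20 in CD62Llo PSGL1lo over naive cells, and was not called there (adjusted p = 0.148).

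The mevalonate enzymes came next, and 5 of the 6 were lower in CD62Llo PSGL1lo than in naive cells, against 12.1% of all genes. Hmgcs1, the cytosolic HMG-CoA synthase at the entry of the pathway, had ratios of 1.76, 1.63 and 1.45 in naive, 1.26, 1.25 and 1.04 in CD62Lhi PSGL1hi, 0.889, 0.956 and 0.813 in CD62Llo PSGL1hi, and 0.787, 0.539 and 0.725 in CD62Llo PSGL1lo arrays. No population overlapped the next in that order. The 2.38-fold fall from naive to CD62Llo PSGL1lo (-1.25 ± 0.14, adjusted p = 2.91e-06) was the sum of smaller steps, and neither step within the CD44+ cells was called (-0.41 ± 0.14, adjusted p = 0.191, to CD62Llo PSGL1hi, then -0.39 ± 0.14, adjusted p = 0.0929).

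Idi1, the isomerase that interconverts both 5-carbon isoprenoid units, showed the widest range of the arm. Its ratios were 2.23, 1.55 and 1.72 in naive, 1.60, 1.41 and 0.976 in CD62Lhi PSGL1hi, 1.02, 0.829 and 0.717 in CD62Llo PSGL1hi, and 0.439, 0.260 and 0.445 in CD62Llo PSGL1lo arrays. Only the CD62Llo PSGL1lo arrays were clear of all the rest, since CD62Lhi PSGL1hi overlapped both naive and CD62Llo PSGL1hi. Idi1 was 4.90-fold lower in CD62Llo PSGL1lo than in naive cells (-2.29 ± 0.22, adjusted p = 6.21e-07) and 2.29-fold lower than in CD62Llo PSGL1hi (-1.19 ± 0.22, adjusted p = 0.00139).

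Mvd, the decarboxylase that makes isopentenyl pyrophosphate, and Fdps, which makes farnesyl pyrophosphate, were low in every CD44+ population. Mvd had 1.98, 2.23 and 2.16 in naive, 0.990, 1.02 and 1.44 in CD62Lhi PSGL1hi, 0.924, 0.860 and 1.01 in CD62Llo PSGL1hi, and 0.641, 0.762 and 0.945 in CD62Llo PSGL1lo arrays. Fdps had 1.70, 2.00 and 1.72 in naive, 1.07, 1.24 and 1.06 in CD62Lhi PSGL1hi, 0.853, 0.749 and 0.747 in CD62Llo PSGL1hi, and 0.944, 0.852 and 0.783 in CD62Llo PSGL1lo arrays. For both genes the naive arrays were above the other 9, and both CD62Llo populations overlapped. Against naive cells Mvd was lower by -0.90 ± 0.15, -1.19 ± 0.15 and -1.45 ± 0.15 in the 3 CD44+ populations (adjusted p = 0.000355, 2.21e-05 and 1.83e-06), and Fdps by -0.68 ± 0.11, -1.20 ± 0.11 and -1.07 ± 0.11 (adjusted p = 0.000241, 6.04e-07 and 1.67e-06). These are the values of 1 probe set for each gene. On the other Mvd probe set, CD62Llo PSGL1lo was also called lower than CD62Llo PSGL1hi (-0.90 ± 0.17, limma adjusted p over all probe sets = 0.00285). The second Fdps probe set was called in no comparison.

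Mvk and Pmvk, the kinases that phosphorylate mevalonate in turn, differed from one another. Mvk had 1.56, 1.34 and 1.21 in naive, 0.902, 0.970 and 1.03 in CD62Lhi PSGL1hi, 0.896, 0.821 and 0.904 in CD62Llo PSGL1hi, and 1.11, 0.783 and 1.05 in CD62Llo PSGL1lo arrays. The 3 CD44+ populations overlapped, all below the naive arrays. The second Mvk probe set was called in no comparison. On the probe set used, Mvk was lower than naive by -0.49 ± 0.13, -0.64 ± 0.13 and -0.49 ± 0.13 (adjusted p = 0.0125, 0.00195 and 0.0122). The first call was lost without CD62Lhi PSGL1hi replicate 1 or naive replicate 1 (adjusted p from 0.0536 to 0.0731), and the last without CD62Llo PSGL1lo replicate 2 or naive replicate 1 (adjusted p 0.0536 and 0.0712) and after quantile normalization (0.0519).

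Pmvk was the only mevalonate enzyme called higher than in naive cells, in both CD62Llo populations and not in CD62Lhi PSGL1hi (0.28 ± 0.16, adjusted p = 0.262). It had 0.751, 0.842 and 0.763 in naive, 0.943, 0.991 and 0.928 in CD62Lhi PSGL1hi, 1.11, 1.21 and 1.01 in CD62Llo PSGL1hi, and 1.84, 1.23 and 2.22 in CD62Llo PSGL1lo arrays. The populations did not overlap, in the reverse of the order seen for Hmgcs1, and replicate 2 of CD62Llo PSGL1lo lay near the CD62Llo PSGL1hi arrays. CD62Llo PSGL1lo was 2.18-fold above naive cells (1.13 ± 0.16, adjusted p = 4.73e-05). The difference from CD62Llo PSGL1hi (0.63 ± 0.16, adjusted p = 0.0155) was lost without CD62Llo PSGL1lo replicate 1 or 3 or CD62Llo PSGL1hi replicate 3 (adjusted p from 0.0562 to 0.087).

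In the squalene and sterol arm, 3 of 10 enzymes were lower in CD62Llo PSGL1lo than in naive cells on the probe set used, against 12.1% of all genes: Sqle, Cyp51 and Msmo1. Sqle, squalene epoxidase, which performs the first oxygenation, had 1.81, 1.66 and 1.51 in naive, 1.18, 1.06 and 0.975 in CD62Lhi PSGL1hi, 1.03, 0.906 and 0.946 in CD62Llo PSGL1hi, and 0.444, 0.351 and 0.465 in CD62Llo PSGL1lo arrays. The PSGL1hi populations overlapped, and the naive and PSGL1lo arrays were clear of them on either side. Sqle was 3.97-fold lower in CD62Llo PSGL1lo than in naive cells (-1.99 ± 0.12, adjusted p = 2.90e-09), 2.30-fold lower than in CD62Llo PSGL1hi (-1.20 ± 0.12, adjusted p = 3.63e-06) and 2.56-fold lower than in CD62Lhi PSGL1hi (-1.36 ± 0.12, adjusted p = 6.17e-07).

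Cyp51, lanosterol demethylase, and Msmo1, the sterol C4-methyl oxidase that follows it, were highest in naive cells. Cyp51 had 1.85, 1.59 and 1.42 in naive, 1.46, 1.02 and 1.08 in CD62Lhi PSGL1hi, 0.985, 0.913 and 0.679 in CD62Llo PSGL1hi, and 0.715, 0.526 and 0.661 in CD62Llo PSGL1lo arrays. Msmo1 had 1.62, 1.43 and 1.31 in naive, 1.05, 1.10 and 0.829 in CD62Lhi PSGL1hi, 1.02, 0.918 and 0.789 in CD62Llo PSGL1hi, and 0.976, 0.694 and 0.829 in CD62Llo PSGL1lo arrays. The Cyp51 arrays of CD62Lhi PSGL1hi reached into the naive range, and those of both CD62Llo populations overlapped; for Msmo1 the CD44+ populations overlapped one another, all below naive. From naive to CD62Llo PSGL1lo, Cyp51 was lower by -1.36 ± 0.17 (adjusted p = 1.16e-05) and Msmo1 by -0.81 ± 0.15 (adjusted p = 0.000495). The second Msmo1 probe set was called in no comparison.

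Hsd17b7 and Ebp encode a sterol ketoreductase and the sterol isomerase. Hsd17b7 was lower in CD62Llo PSGL1lo than in CD62Llo PSGL1hi by -0.54 ± 0.12 (adjusted p = 0.00612), with mean ratios of 0.764 ± 0.117 (SD, n = 3) in CD62Llo PSGL1lo and 0.912 ± 0.104 in naive cells, a difference that did not pass (-0.26 ± 0.12, adjusted p = 0.141). On 2 of the other 3 Hsd17b7 probe sets CD62Llo PSGL1lo was called lower than naive, by -0.47 ± 0.11 and -0.33 ± 0.11 (adjusted p over all probe sets = 0.00812 and 0.047). Ebp was higher than naive in CD62Lhi PSGL1hi (0.40 ± 0.13, adjusted p = 0.0317) and in CD62Llo PSGL1hi (0.38 ± 0.13, adjusted p = 0.0431), and CD62Llo PSGL1lo stood near naive (-0.04 ± 0.13). Each of these Ebp calls was lost without any of 6 arrays, the 3 naive arrays and replicate 1 of CD62Lhi PSGL1hi in both, with replicates 2 and 3 of CD62Lhi PSGL1hi in the first and replicates 1 and 3 of CD62Llo PSGL1hi in the second (adjusted p up to 0.112 and 0.169). Nsdhl and Dhcr7, which act in demethylation and in the last reduction, missed the F test (adjusted p = 0.0557 and 0.0545). On the probe set used for each, Fdft1, Lss and Sc5d spanned only 0.07 to 0.21 between their highest and lowest log2 means. They encode squalene synthase, lanosterol synthase and the C5 desaturase. Some of their other probe sets differed among the populations, as given further on.

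Stard4, a carrier that moves cholesterol between membranes, had its highest mean in CD62Lhi PSGL1hi on the probe set used. Its ratios there were 1.64, 1.16 and 1.14, against 0.948, 0.839 and 0.830 in naive, 1.25, 1.04 and 0.984 in CD62Llo PSGL1hi, and 1.02, 0.703 and 0.806 in CD62Llo PSGL1lo arrays. The CD62Lhi PSGL1hi arrays overlapped those of CD62Llo PSGL1hi and were clear of the rest. CD62Lhi PSGL1hi was above naive by 0.57 ± 0.16 (adjusted p = 0.0146), a call lost without CD62Lhi PSGL1hi replicate 1 or naive replicate 2 or 3 (adjusted p from 0.058 to 0.0848). It was above CD62Llo PSGL1lo too, with CD62Llo PSGL1lo lower by -0.64 ± 0.16 (adjusted p = 0.00955), lost without CD62Lhi PSGL1hi replicate 1 (adjusted p = 0.0561). Its other 2 probe sets were called in no comparison; they gave -0.16 ± 0.11 and -0.04 ± 0.14 for the latter difference.

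The largest difference of the set belonged to Acss2, which makes cytosolic acetyl-CoA from acetate. Its ratios were 2.57, 2.03 and 1.94 in naive, 1.32, 1.07 and 0.934 in CD62Lhi PSGL1hi, 1.10, 0.910 and 0.888 in CD62Llo PSGL1hi, and 0.308, 0.272 and 0.294 in CD62Llo PSGL1lo arrays. The PSGL1hi populations overlapped, and the tightly grouped PSGL1lo arrays lay far below them. Acss2 was 7.43-fold lower in CD62Llo PSGL1lo than in naive cells (-2.89 ± 0.14, adjusted p = 2.05e-10) and 3.31-fold lower than in CD62Llo PSGL1hi (-1.73 ± 0.14, adjusted p = 3.14e-07).

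Elovl6, the elongase that extends palmitate to stearate, was highest in CD62Lhi PSGL1hi instead of in naive cells. Its ratios were 0.969, 0.890 and 0.958 in naive, 1.81, 1.95 and 1.72 in CD62Lhi PSGL1hi, 1.42, 1.03 and 1.23 in CD62Llo PSGL1hi, and 0.381, 0.467 and 0.546 in CD62Llo PSGL1lo arrays. No 2 populations overlapped, and naive cells sat between CD62Llo PSGL1hi and CD62Llo PSGL1lo. Elovl6 was 1.94-fold higher in CD62Lhi PSGL1hi than in naive cells (0.96 ± 0.14, adjusted p = 6.22e-05), 3.96-fold lower in CD62Llo PSGL1lo than in CD62Lhi PSGL1hi (-1.99 ± 0.14, adjusted p = 3.08e-08) and 2.04-fold lower in CD62Llo PSGL1lo than in naive cells (-1.03 ± 0.14, adjusted p = 2.19e-05). Of the 23 cell cycle genes, 21 also had their highest mean in CD62Lhi PSGL1hi, against 19.4% of all genes. The part of cycling cells in the Elovl6 level was not tested.

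**Figure D2:**
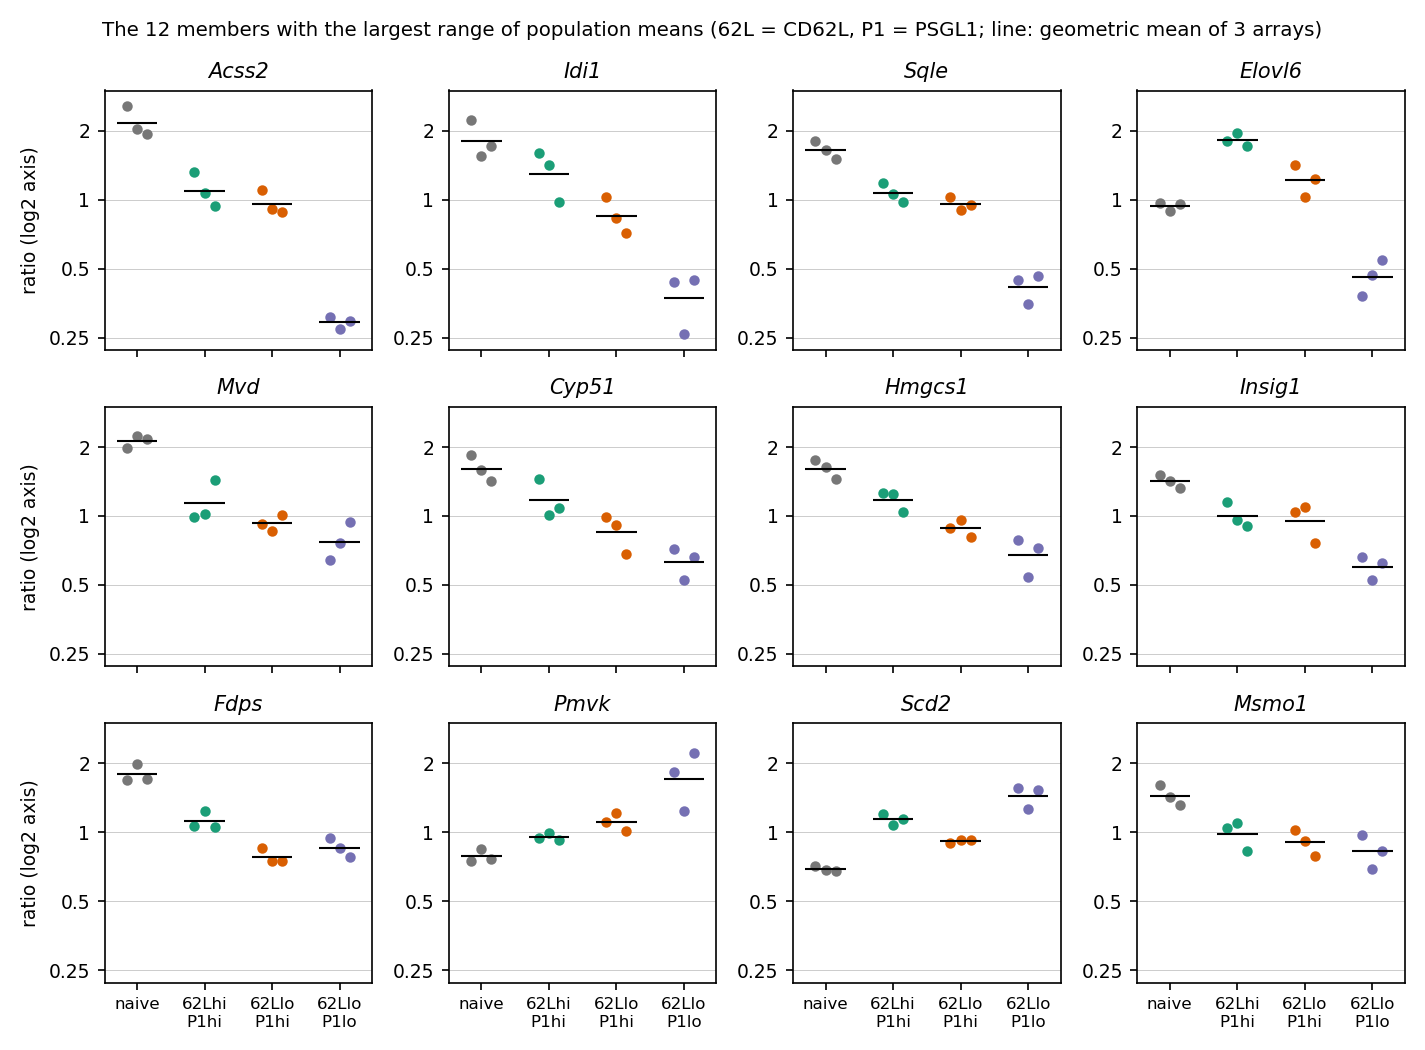
Ratio to the probe set's median (log2 axis) on each array for the 12 members with the widest range of population means; points are arrays and lines the geometric mean of 3 arrays. The naive mean is the highest in all panels but 3; Elovl6 peaks in CD62Lhi PSGL1hi, and Pmvk and Scd2 are highest in CD62Llo PSGL1lo.

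The core fatty acid synthesis enzymes had smaller differences. On the probe set used for each gene, Acly, which makes acetyl-CoA from citrate, Acaca, acetyl-CoA carboxylase, and Fasn, fatty acid synthase, were called in none of the 6 comparisons. Between CD62Llo PSGL1lo and naive cells, Fasn differed by 0.18 with a 95% interval from -0.08 to 0.45, Acaca by -0.02 (interval -0.27 to 0.23) and Acly by -0.31 (interval -0.58 to -0.03, adjusted p = 0.107). Differences of the size seen for Acss2 lay outside all 3 intervals. One of the other 5 Acly probe sets was called lower in CD62Llo PSGL1lo, by -0.33 ± 0.11 against naive, -0.38 ± 0.11 against CD62Llo PSGL1hi and -0.39 ± 0.11 against CD62Lhi PSGL1hi (adjusted p over all probe sets = 0.0407, 0.0407 and 0.0263). The second Acaca probe set was called higher than naive in all 3 CD44+ populations. It gave 0.83 ± 0.14 in CD62Lhi PSGL1hi, 0.65 ± 0.14 in CD62Llo PSGL1hi and 0.66 ± 0.14 in CD62Llo PSGL1lo.

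The desaturases split. Scd1 and Scd2 both insert the first double bond into stearate, and on the probe set used for each they moved in opposite directions. Scd2 had 0.712, 0.686 and 0.677 in naive, 1.20, 1.07 and 1.15 in CD62Lhi PSGL1hi, 0.900, 0.926 and 0.927 in CD62Llo PSGL1hi, and 1.55, 1.27 and 1.54 in CD62Llo PSGL1lo arrays. No 2 populations overlapped, with CD62Llo PSGL1lo highest. Scd2 was above naive by 0.72 ± 0.10, 0.41 ± 0.10 and 1.06 ± 0.10 in the CD44+ populations in the order above (adjusted p = 4.69e-05, 0.00681 and 4.51e-07), the second not passing after quantile normalization (adjusted p = 0.0973). On the remaining probe sets the picture was narrower: the other 2 Scd2 probe sets were called higher in CD62Llo PSGL1lo alone (0.73 ± 0.11 and 0.79 ± 0.20), with 0.08 and 0.40 in CD62Lhi PSGL1hi and 0.07 and 0.22 in CD62Llo PSGL1hi. Scd1 was below naive by -0.58 ± 0.11, -0.55 ± 0.11 and -0.54 ± 0.11 (adjusted p = 0.00104, 0.0017 and 0.00154), with mean ratios of 1.43 ± 0.144 (SD, n = 3) in naive and 0.981 ± 0.0254 in CD62Llo PSGL1lo cells. The second Scd1 probe set gave -0.04, -0.08 and -0.12 in the same order and was called in no comparison. Fads1, the delta-5 desaturase of polyunsaturated fatty acids, spanned 0.33 between its log2 means, and Fads2, the delta-6 desaturase, was not called in any comparison.

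The sterol-exporting side showed no call. The liver X receptor gene Nr1h3 had F test adjusted p = 0.216, and the efflux pump genes Abca1 and Abcg1 had 0.504 and 0.301. Between CD62Llo PSGL1lo and naive cells, Abca1 differed by -0.23 with a 95% interval from -0.48 to 0.02, Abcg1 by -0.04 (interval -0.30 to 0.22) and Nr1h3 by -0.12 (interval -0.32 to 0.09). These are the values of 1 probe set per gene, and others of Abca1 and Abcg1 are given further on.

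Set against naive cells, each CD44+ population had more members lower than higher. In CD62Lhi PSGL1hi 14 members were called, 4 higher and 10 lower, where the background over all genes was 20.7% in either direction, 10.6% higher and 10.1% lower. In CD62Llo PSGL1hi 15 were called, 3 higher and 12 lower (background 20.7%, 10.8% and 9.94%). In CD62Llo PSGL1lo 16 were called, 2 higher and 14 lower (background 23.2%, 11.1% and 12.1%). The median log2 difference of the 34 members was -0.04, -0.13 and -0.27 in that order, beside -0.04, -0.06 and -0.06 over all genes. These comparisons share the naive arrays. The higher members were Ebp, Stard4, Elovl6 and Scd2 in CD62Lhi PSGL1hi, Pmvk, Ebp and Scd2 in CD62Llo PSGL1hi, and Pmvk and Scd2 in CD62Llo PSGL1lo. Leaving out any 1 array cost CD62Llo PSGL1lo the Mvk call alone and CD62Llo PSGL1hi the Pmvk and Ebp calls, Pmvk without any naive array or replicate 1 or 2 of CD62Llo PSGL1hi (adjusted p up to 0.135). In CD62Lhi PSGL1hi 7 of the 14 held throughout: Mvd, Fdps, Sqle, Acss2, Elovl6, Scd1 and Scd2. The count there dropped to 8 without naive replicate 1 and 9 without naive replicate 2. Among the losses, Insig1 missed without CD62Lhi PSGL1hi replicate 2 or 3 or naive replicate 1 or 2 (adjusted p up to 0.0679), Hmgcs1 without CD62Lhi PSGL1hi replicate 3 or naive replicate 1 or 2 (up to 0.112), and Msmo1 without CD62Lhi PSGL1hi replicate 3 or naive replicate 1 (up to 0.0613). These 3 were also lost there after quantile normalization (adjusted p = 0.133, 0.0904 and 0.0525).

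**Figure D3:**
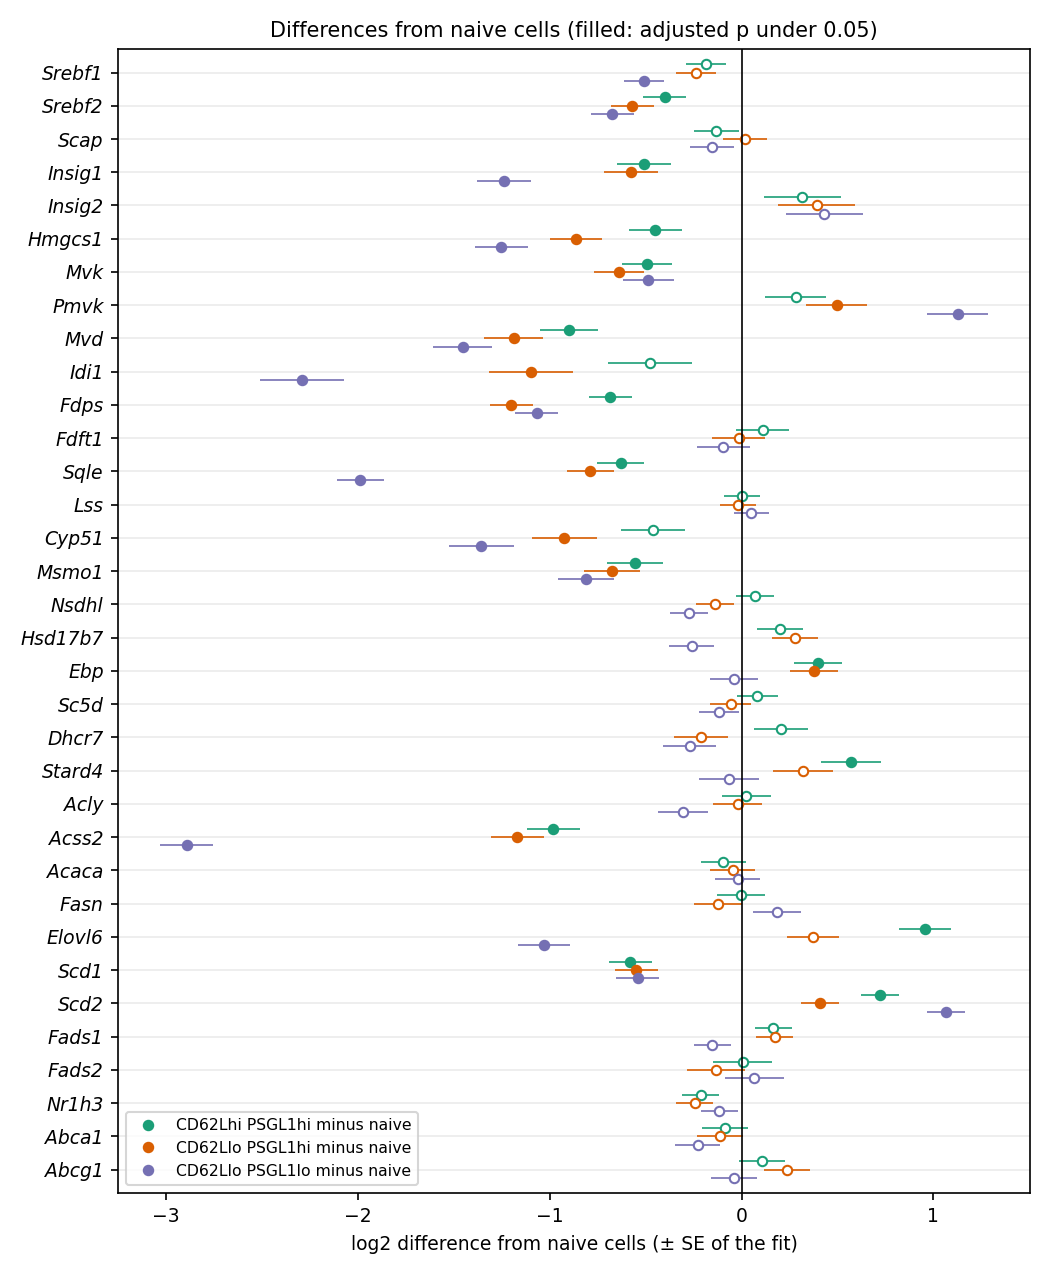
Log2 difference from naive cells for each member (rows), in CD62Lhi PSGL1hi (green), CD62Llo PSGL1hi (orange) and CD62Llo PSGL1lo (purple), with bars for the SE of the fit; filled points passed the test. Acss2 reaches -2.89 and Idi1 -2.29 in CD62Llo PSGL1lo, while Pmvk and Scd2 lie to the right of 0.

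Age is shared within the CD44+ cells of the older mice. There, more members were called across the PSGL1 gate at low CD62L than across the CD62L gate at high PSGL1. The same held for all genes. Between CD62Llo PSGL1lo and CD62Llo PSGL1hi 10 members were called (29.4%), 2 higher and 8 lower. The background was 10.8% of all genes (4.64% higher and 6.16% lower). In the same comparison 2 of 8 B cell markers were lower (Ms4a1 by -1.51 ± 0.26 and Cd79b by -1.03 ± 0.11), as were 1 of 13 macrophage, monocyte and neutrophil markers (Cd68, -1.79 ± 0.16) and 2 of 5 NK and CD8 T cell markers (Klre1, -0.63 ± 0.14, and Klrk1, -0.54 ± 0.17), while 2 of 7 stroma and endothelium markers (Pecam1, 1.20 ± 0.16, and Kdr, 0.41 ± 0.10) and 1 of 9 T cell markers (Zap70, 0.59 ± 0.12) were higher; their part in the member differences was not tested. The lower members were Insig1, Idi1, Sqle, Hsd17b7, Ebp, Acss2, Elovl6 and Fads1, and the higher ones Pmvk and Scd2. Between CD62Llo PSGL1hi and CD62Lhi PSGL1hi 2 members were called (5.88%), Fdps and Elovl6, both lower, against a background of 2.17% (0.742% higher, 1.42% lower). Both comparisons share the CD62Llo PSGL1hi arrays, and the difference between their counts was not tested. Without 1 array, 7 of the 10 calls of the first comparison held. Pmvk was lost as given above, Ebp without any of 7 arrays (adjusted p up to 0.186: the 3 naive arrays, CD62Lhi PSGL1hi replicate 1, CD62Llo PSGL1hi replicates 1 and 3, CD62Llo PSGL1lo replicate 2) and Fads1 without any of 8 (up to 0.139: the 3 naive arrays, the 3 of CD62Llo PSGL1hi, CD62Llo PSGL1lo replicates 2 and 3). With the replicate number as a block on the 9 CD44+ arrays, Fads1 was lost (adjusted p = 0.0538), and Cyp51 (-0.43, adjusted p = 0.0413) and Stard4 (-0.39, adjusted p = 0.0234) were called in addition.

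The calls from CD62Lhi PSGL1hi to CD62Llo PSGL1hi were less firm. Fdps was lower by -0.52 ± 0.11 (adjusted p = 0.0194) and Elovl6 by -0.58 ± 0.14 (adjusted p = 0.0327). Fdps was lost without CD62Lhi PSGL1hi replicate 2 or CD62Llo PSGL1hi replicate 2 or 3 (adjusted p from 0.0896 to 0.1), and Elovl6 without any array of CD62Lhi PSGL1hi, replicate 2 or 3 of CD62Llo PSGL1hi, or replicate 2 or 3 of naive cells (adjusted p from 0.0517 to 0.199) and after quantile normalization (0.0595). For the same step, the cell cycle list fell with a median of -1.25, 14 of its 23 genes being called, against 2.17% of all genes. Idi1 (-0.62 ± 0.22, adjusted p = 0.243) and Cyp51 (-0.46 ± 0.17, adjusted p = 0.265) did not pass.

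**Figure D4:**
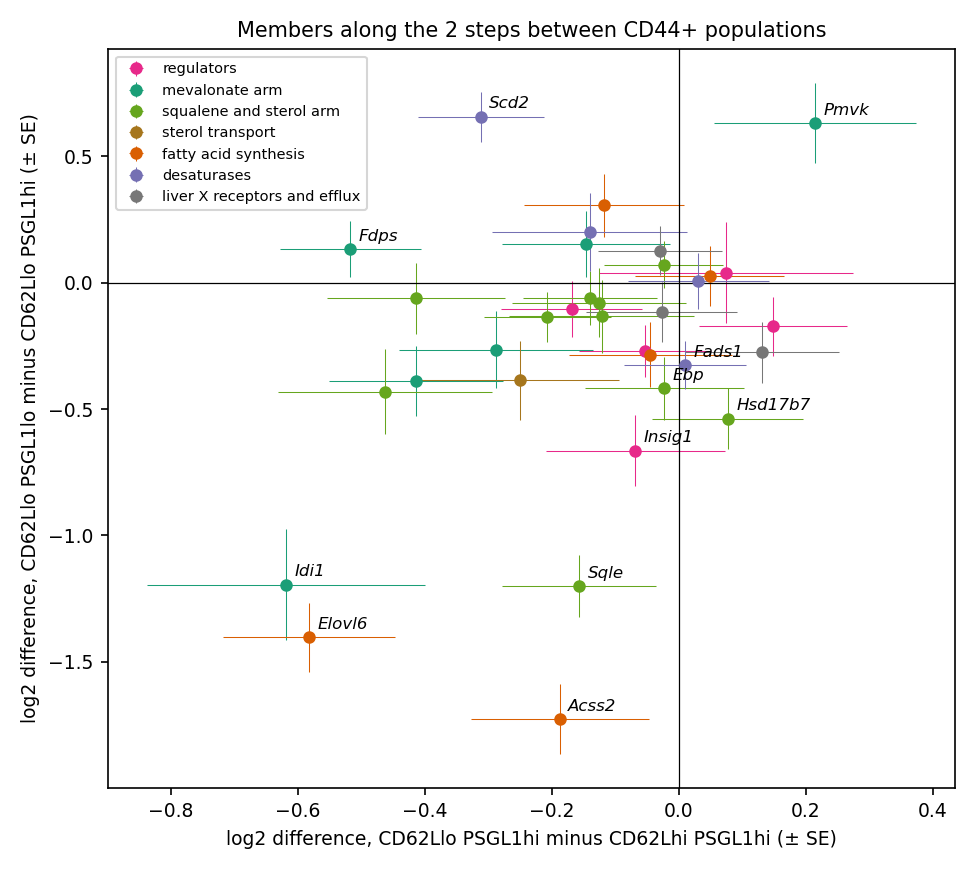
Log2 difference of each member from CD62Lhi PSGL1hi to CD62Llo PSGL1hi (horizontal) and from CD62Llo PSGL1hi to CD62Llo PSGL1lo (vertical), with SE bars, coloured by role; members called in either are named. Both axes use the CD62Llo PSGL1hi arrays; Acss2 lies at -0.19 on the horizontal and -1.73 on the vertical axis, and Fdps at -0.52 and 0.13.

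Between the ends of the CD44+ series, CD62Llo PSGL1lo against CD62Lhi PSGL1hi, 18 members were called, 2 higher (Pmvk and Scd2) and 16 lower, against a background of 14.9% (6.76% higher, 8.16% lower). The median member difference was -0.29 and that of all genes -0.01. By role, 4 of 6 mevalonate enzymes, 6 of 10 squalene and sterol enzymes, 2 of 5 regulators and 2 of 5 fatty acid synthesis genes were lower. The cell cycle list had 16 of 23 genes lower in the same comparison, with a median of -1.45, and its part in the member differences was not tested. The calls of Insig1, Hmgcs1, Pmvk, Idi1, Sqle, Cyp51, Acss2 and Elovl6 held without any 1 array. The other 10 were each lost without at least 1 array of these populations: Srebf1 without any of 11 arrays, all but CD62Llo PSGL1lo replicate 3 (adjusted p up to 0.169), Dhcr7 without replicates 1 or 2 of either population (up to 0.166), Nsdhl without CD62Lhi PSGL1hi replicate 1 or 3 or CD62Llo PSGL1lo replicate 2 (up to 0.143), Fdps without CD62Lhi PSGL1hi replicate 2 or CD62Llo PSGL1lo replicate 2 or 3 (up to 0.124), Mvd without CD62Llo PSGL1lo replicate 1 or CD62Lhi PSGL1hi replicate 3 (0.102), Ebp without replicate 2 of either (up to 0.0923), and Hsd17b7 without CD62Llo PSGL1lo replicate 1 or 3 (up to 0.0647). Scd2 was lost without replicate 1 or 3 of CD62Llo PSGL1lo or 2 or 3 of CD62Lhi PSGL1hi (up to 0.105), Stard4 without CD62Lhi PSGL1hi replicate 1 (0.0561), and Fads1 without any of 5 arrays, CD62Lhi PSGL1hi replicates 1 and 2, CD62Llo PSGL1lo replicates 2 and 3 and naive replicate 2 (up to 0.124). The replicate block on the 9 CD44+ arrays also lost Srebf1 and Fads1 (adjusted p = 0.0581 and 0.0503), and a fit of these 2 populations alone left 10 members called. Quantile normalization lost Srebf1, Mvd, Fdps, Dhcr7 and Scd2 (adjusted p = 0.0587, 0.0734, 0.199, 0.148 and 0.0952).

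Of the 34 members, 25 had several probe sets, tested in a fit over all 45037 probe sets. Between CD62Llo PSGL1lo and naive cells 39 of the 80 were called, 34 lower and 5 higher, where 20.1% of all probe sets were called. No gene had calls in both directions in that comparison. Hmgcs1 had 5 probe sets, all lower, by -1.03 to -1.43. The second probe set of Idi1 gave -1.96 ± 0.15, that of Acss2 -2.59 ± 0.09 and that of Elovl6 -1.48 ± 0.12, each in the direction of the first. Others did not follow: the second Fdps probe set gave -0.05 ± 0.10 and the third of Elovl6 0.14 ± 0.13, neither called, and the second of Scd1 gave -0.12 ± 0.11. The second probe set of Mvk gave -0.22 ± 0.11 and that of Msmo1 -0.16 ± 0.10, neither called.

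For several genes without an F test call, another probe set did differ. Lss had -1.24 ± 0.23 (adjusted p = 0.00114) and -0.50 ± 0.10 (adjusted p = 0.00145) on its other 2 probe sets, against 0.05 ± 0.09 on the one used. Sc5d had -1.02 ± 0.12 on its second probe set, against -0.12 ± 0.10 on the one used. Abca1 had -0.72 ± 0.10 on its second and Abcg1 -0.34 ± 0.09 on its second probe set. Acly had -0.33 ± 0.11 on 1 of its other 5, as given above. Acaca had 0.66 ± 0.14 on its second probe set, higher in CD62Llo PSGL1lo than in naive cells. Between CD62Lhi PSGL1hi and naive cells, Fdft1 was called in both directions, at 0.38 ± 0.12 and -0.47 ± 0.14 on different probe sets (adjusted p = 0.0464 and 0.0309), and it was the 1 gene with opposite calls there. Which probe set reports the gene's main transcript was not tested.

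**Figure D5:**
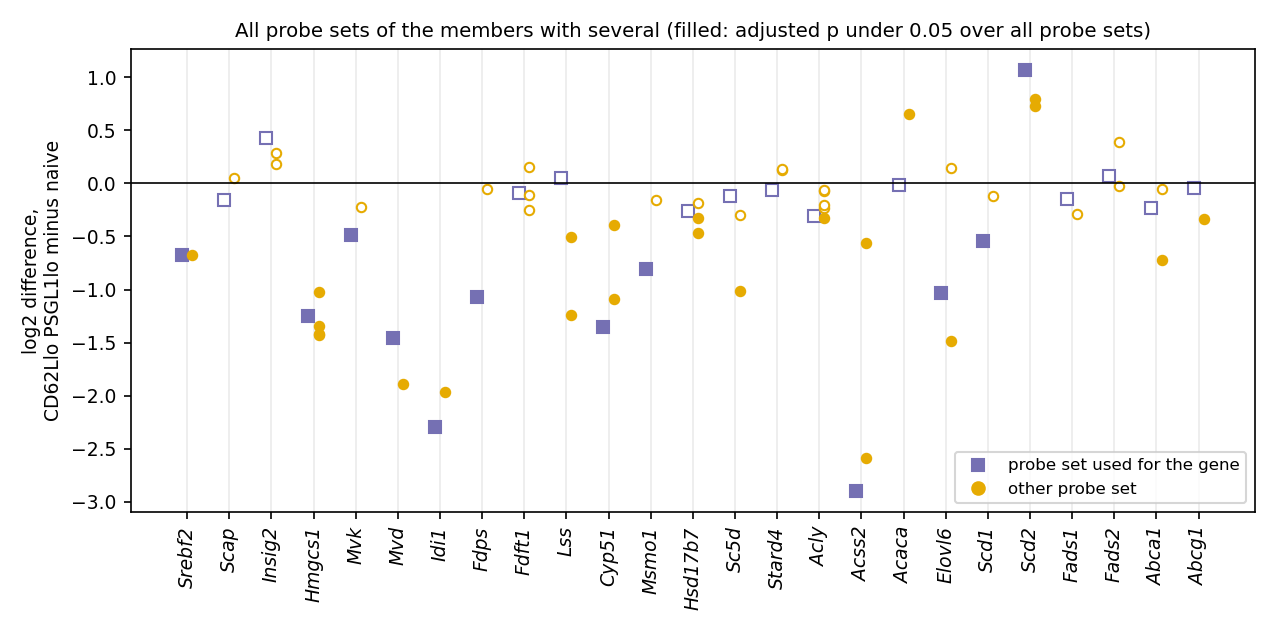
Log2 difference between CD62Llo PSGL1lo and naive cells for every probe set of the 25 members with several; squares are the probe sets used for the gene, circles the others, and filled symbols passed the test over all probe sets. The probe sets of Hmgcs1 lie together below 0, and those of Lss, Sc5d and Acaca spread apart.

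Neighbouring lipid genes from 4 further lists did not move as one. Of 10 other sterol and isoprenoid genes measured, 5 were called by the F test (background 28.2%), and between CD62Llo PSGL1lo and CD62Llo PSGL1hi 1 was called, Tm7sf2, a share near the 10.8% background. Tm7sf2, a sterol C14 reductase, had ratios of 2.55, 2.10 and 2.25 in CD62Llo PSGL1lo, 0.610, 0.783 and 0.487 in CD62Llo PSGL1hi, 0.545, 0.568 and 0.588 in CD62Lhi PSGL1hi, and 1.26, 1.27 and 1.22 in naive arrays. It was thus highest in the population in which Sqle and Idi1 were lowest (1.90 ± 0.14 over CD62Llo PSGL1hi, adjusted p = 8.80e-08). Fntb, a farnesyltransferase subunit, was below naive in all 3 CD44+ populations, by -1.26 ± 0.10 in CD62Llo PSGL1lo (adjusted p = 9.14e-08), and Cyb5r3, a cytochrome b5 reductase, was above naive there by 0.69 ± 0.13 (adjusted p = 0.00107). Acat1, the mitochondrial thiolase, was below naive by -0.65 ± 0.14 in CD62Lhi PSGL1hi (adjusted p = 0.00317).

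Among 17 genes of sterol uptake, storage and oxysterol signalling, 9 were called between CD62Llo PSGL1lo and naive cells, 5 higher and 4 lower (background 23.2%, with 11.1% higher and 12.1% lower). Apoe, the lipoprotein component, had ratios of 23.3, 6.85 and 11.4 in CD62Llo PSGL1lo and 0.593 to 1.47 on the other 9 arrays, a difference of 3.80 ± 0.35 from naive cells (adjusted p = 3.76e-07). Stard5, a sterol and bile acid binding protein, was 2.92 ± 0.15 above naive (adjusted p = 2.76e-10). Npc2, which carries cholesterol out of lysosomes, was lower by -1.11 ± 0.12 (adjusted p = 2.08e-06). Gpr183, the receptor for an oxysterol that guides lymphocytes, was higher by 1.03 ± 0.12 (adjusted p = 7.93e-06). Macrophages also express Apoe. Of the 13 macrophage, monocyte and neutrophil markers, none was higher and 1, Cd68, was lower in CD62Llo PSGL1lo than in CD62Llo PSGL1hi. Against naive cells, 2 of the 13 were higher in CD62Llo PSGL1lo and 4 lower, where 11.1% and 12.1% of all genes were. Cd68 had ratios of 0.426 to 0.555 in CD62Llo PSGL1lo arrays and 0.183 to 0.237 in naive arrays. Lyz2, another of them, had 1.70, 0.355 and 0.352 on the CD62Llo PSGL1lo arrays, highest on the array where Apoe was highest. The part of such cells in the Apoe level was not tested.

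Of 21 other fatty acid and lipid synthesis genes, 8 were called between CD62Llo PSGL1lo and naive cells, 4 higher and 4 lower, against the same 23.2% background. Pcyt2, of phosphatidylethanolamine synthesis, was lower by -0.87 ± 0.11 (adjusted p = 9.01e-06), Lpcat3, a lysophospholipid acyltransferase, by -0.84 ± 0.10 (adjusted p = 6.52e-06) and Elovl7, an elongase, by -1.28 ± 0.20 (adjusted p = 0.000105). Acsl3, an acyl-CoA synthetase, exceeded its CD62Llo PSGL1hi level in CD62Llo PSGL1lo by 1.26 ± 0.21 (adjusted p = 0.000495). Of 19 fatty acid oxidation genes, 8 were called between CD62Llo PSGL1lo and naive cells, 6 higher and 2 lower. The lower share was near the 12.1% background. Acadl, a long-chain acyl-CoA dehydrogenase, rose by 2.44 ± 0.15 (adjusted p = 3.57e-09), Decr1, a dienoyl-CoA reductase, by 2.15 ± 0.12 (adjusted p = 1.14e-09) and Etfb, an electron transfer flavoprotein subunit, by 0.57 ± 0.11 (adjusted p = 0.000903), while Acaa2, a thiolase, was lower by -1.18 ± 0.13 (adjusted p = 3.11e-06).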

How the data were processed

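RNA of 12 samples was hybridised to Affymetrix mouse expression arrays. The deposited values are linear ratios; the submitters' processing notes name MAS5 (version and scaling not given in the sources used here). By the values, the authors divided each probe set by its median over the 12 arrays: 99.7% of row medians lay within 0.002 of 1. Brightness and background are therefore unknown, and array medians of 0.967 to 1.022 were left as deposited.

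Ratios were taken to log2, with 1 probe set per gene, preferring no _x_ or _s_ suffix, then an NM_ accession, then the lowest number. limma 3.58.1 in R 4.3.3 fitted 4 population means with lmFit and eBayes (residual df 8, prior df 7.31). Tests were two-sided, with Benjamini-Hochberg adjustment over 18193 genes, in an F test and 6 comparisons. The design had allowed for signals with a pseudocount, and ratios needed none. The fit was tested on simulated data.

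Groups follow the sample titles and design text; the description of the CD62Llo PSGL1hi samples gives a different gate. Every member was accounted for, with all array values for the 14 members of widest range of means among those called by the F test and means, counts or ranges for the rest. From each further list up to 4 called genes with the smallest F p were named. The array values of Stard4, Apoe and Tm7sf2 and the single marker genes were chosen after their values were seen. Members and lists were chosen with earlier results of these data known. Deviations of same-numbered arrays from their population means had r from 0.109 to 0.456 among CD44+ populations. With naive arrays r ran from -0.132 to 0.215, and the ranges overlap. No r was computed between arrays of different numbers. The number entered only as the replicate block, an alternative, and the reported fit had no such term. Alternatives were quantile or median scaling, other probe sets, a robust prior, fewer arrays in the fit and the replicate block. Figures used Python 3.11.15 with matplotlib 3.10.9 and pandas 2.3.3; promoters came from RefSeq.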

Additional observations from a re-analysis of the deposited data

How the results depend on the processing

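Of 142 recomputed counts of called members, 129 stayed within 1.5 times the reported one. The 2 calls between CD62Llo PSGL1hi and CD62Lhi PSGL1hi became 1 after quantile normalization, 1 with the mean of all probe sets and 1 in a fit of these 2 populations alone, and 0 to 2 when 1 array was left out. The 18 between CD62Llo PSGL1lo and CD62Lhi PSGL1hi became 10 in a fit of these populations alone, where fewer arrays estimate the spread, and 12 to 17 without 1 array. The 14 between CD62Lhi PSGL1hi and naive cells became 8 to 15 without 1 array, the lowest without naive replicate 1. Without 1 array the F test called 18 to 21 members, CD62Llo PSGL1lo against CD62Llo PSGL1hi 8 to 11, and CD62Llo PSGL1hi and CD62Llo PSGL1lo against naive cells 13 to 16 and 15 to 17.

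The choice of probe set turned the sign for 4 members, none of them called with the probe set used. Taking for each gene its most variable probe set, Fdft1 differed from naive by -0.47 in CD62Lhi PSGL1hi, where another of its probe sets was called the opposite way, Sc5d by -0.51 in the same population, Lss by -1.08 in CD62Lhi PSGL1hi and -1.24 in CD62Llo PSGL1lo, and Acaca by 0.83, 0.65 and 0.66 in CD62Lhi PSGL1hi, CD62Llo PSGL1hi and CD62Llo PSGL1lo. With the mean of all probe sets, Lss gave -0.51 and -0.56, and Acaca 0.37, 0.30 and 0.32. Under quantile or median scaling no called difference turned sign; quantile normalization added calls of Fdps between CD62Llo PSGL1lo and CD62Llo PSGL1hi (0.58, adjusted p = 0.0458) and of Elovl6 between CD62Llo PSGL1hi and naive cells (0.51, adjusted p = 0.0427).

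With the replicate number as a block over all 12 arrays, 22 members were called by the F test, and the pairwise counts were 12 for CD62Llo PSGL1lo against CD62Llo PSGL1hi, 2 and 18 for the other comparisons among CD44+ cells, and 16, 17 and 18 against naive cells, with no pairwise call lost. Calls were also added against naive cells, which came from mice of another age. In CD62Lhi PSGL1hi they were Idi1 and Cyp51 (adjusted p = 0.0481 and 0.0105). In CD62Llo PSGL1hi they were Insig2 and Stard4 (0.0436 and 0.0313), and in CD62Llo PSGL1lo Insig2 and Nsdhl (0.0242 and 0.046). With the block on the 9 CD44+ arrays the counts were 11, 2 and 16. The 3 arrays per population limit the depth of every statement, signal over background is unknown, and the low array 2 of CD62Llo PSGL1lo widens that population's spread.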
